A study of Bos taurus with 14 samples.

Results

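The growth hormone and insulin-like growth factor (IGF) axis was examined in calf liver through 10 genes chosen by symbol: the receptor gene GHR, the signalling genes JAK2, STAT5B and SOCS2, the hormone gene IGF1, its serum partner gene IGFALS and the binding protein genes IGFBP1, IGFBP2, IGFBP3 and IGFBP4. They are 10 of 17469 genes in the deposited table and 31 of its 49721 transcripts. Supplemented calves (DCLI, n = 7) were given 1 g per day of a postbiotic, killed cells of Lactobacillus ingluviei strain CR37, and control calves (CON, n = 7) were not. All 14 were Holstein bull calves reared on milk replacer at 1.75% of body weight, with starter from day 33, milk replacer cut to 50% on day 82, weaning complete by day 89 and slaughter on day 90. One poly(A)-selected RNA library was made from the liver of each calf, so each value is the level in 1 animal. The titles mark the supplemented libraries TRT, which was taken to mean DCLI.

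Growth hormone from the pituitary binds its receptor on hepatocytes, the kinase JAK2 is activated, and STAT5 proteins carry the signal to the nucleus, where IGF1, IGFALS and the feedback inhibitor gene SOCS2 are known targets. Secreted IGF-I circulates mainly in a complex with IGFBP-3 and the acid-labile subunit encoded by IGFALS, while IGFBP-1 and IGFBP-2 form smaller complexes and are known to be high when insulin or feed supply is low. In dairy cows the liver axis is known for its uncoupling around calving, when hepatic GHR and IGF1 mRNA fall although growth hormone is high.

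The libraries held 15274 to 15781 genes above 0 TPM, a relative abundance that corrects for transcript length and is scaled to 1 fixed sum, and their sequencing depth is unknown because that scaling removes it. All 8 hepatocyte markers were detected, with summed levels of 38454 to 116622 TPM in DCLI and 57085 to 105945 TPM in CON, against at most 0.43 TPM for the skeletal muscle markers MYH1, MYH2 and ACTA1. In bulk liver, fewer cells of a type and less RNA per cell cannot be told apart. Values below with the hepatocyte marker sum removed are therefore not a correction for cell content alone. Some libraries stood apart in ways that touch the axis. DCLI calf 6 had the lowest hepatocyte marker sum, the highest mRNA of haptoglobin, an acute phase protein (HP, 29341 TPM), and the highest IGFBP1. CON calf 1 had the lowest HP (46.6 TPM) and the highest SOCS2 and STAT5B. CON calf 2 had the highest sum of the 6 T and NK cell markers, 269.6 TPM, where the DCLI calves had 19.8 to 74.7 TPM and all CON calves 24.9 to 269.6 TPM. The sum of the 6 Kupffer cell and macrophage markers ran from 1057 to 3261 TPM in DCLI and from 1226 to 5401 TPM in CON.

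None of the 10 genes passed the adjusted threshold between DCLI and CON calves. GHR and IGF1 stood higher in DCLI calves, with means 1.81 and 1.78 times those of CON, at an unadjusted p under 0.05 by limma's moderated test. Across the 14 calves the levels of several of the genes varied together: calves with much GHR mRNA tended to have much IGF1 and IGFALS and little IGFBP1. Within CON the r of GHR was 0.36 with IGF1, 0.41 with IGFALS and -0.74 with IGFBP1. With the hepatocyte marker sum removed over all calves, these values were 0.58, 0.38 and -0.37. Over all genes, 0 of 11905 tested (0%) passed an adjusted p of 0.05, and 1058 (8.89%) had an unadjusted p under 0.05. Of these, 678 were higher in DCLI (5.7%) and 380 lower (3.19%). Of the 10 axis genes, all of which passed the filter on low values, 2 had an unadjusted p under 0.05, both higher in DCLI, and 0 were lower. The log2 fold change was above 0 for 6 of the 10 (48.8% of all genes) and below 0 for 4 (51.2% of all genes). The median log2 fold change was 0.04 over the 10 genes and -0.01 over all genes tested.

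**Figure D1:**
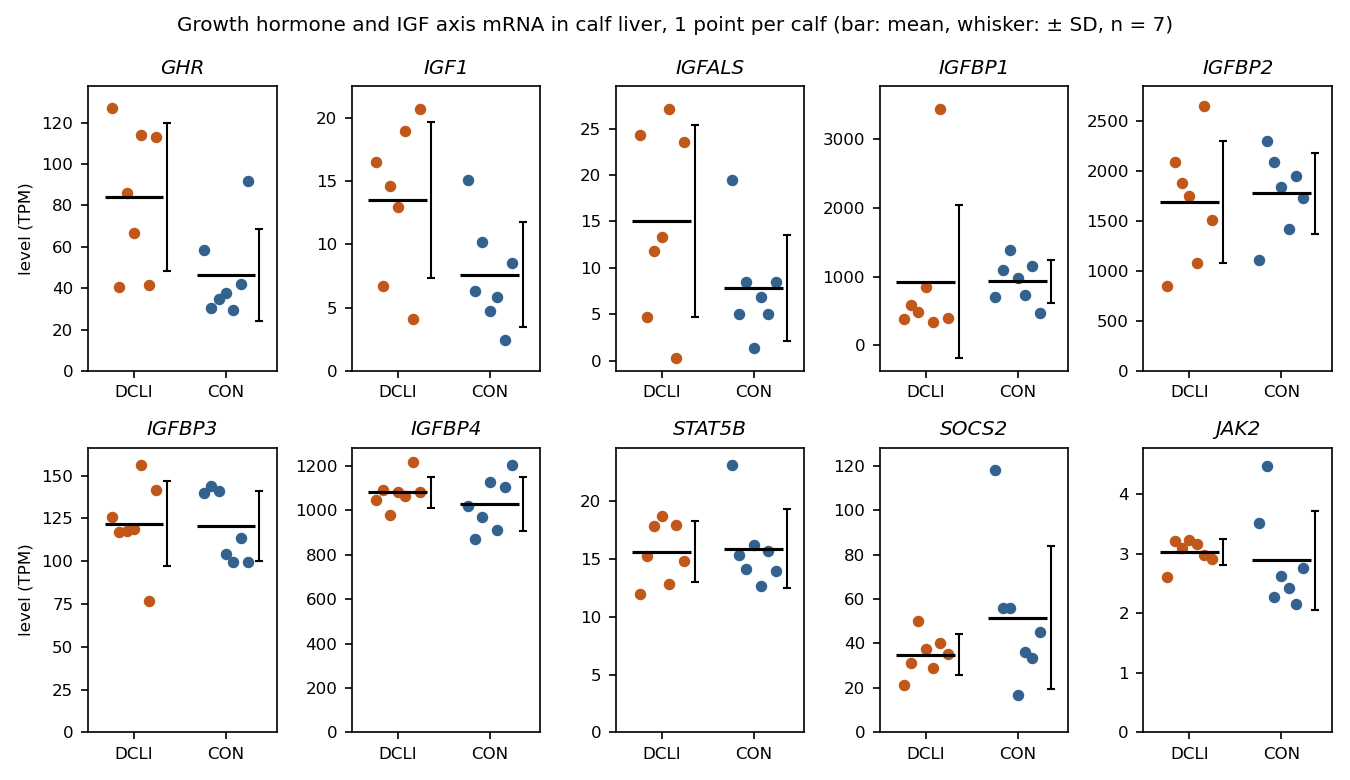
Level in TPM (vertical axes, linear, each with its own scale) of the 10 axis genes in DCLI calves (left) and CON calves (right) with 1 point per calf; the black bar is the mean and the whisker ± 1 SD (n = 7 each). The groups overlap for every gene, and the whisker of IGFBP1 in DCLI reaches below 0 because 1 calf had 3433 TPM.

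The receptor was examined first. GHR, which encodes the growth hormone receptor, had 40.5, 85.9 and 127.3 TPM in DCLI calves and 29.4, 37.9 and 91.9 TPM in CON calves (lowest, median and highest, n = 7 each). All 7 DCLI calves lay above the CON median, and DCLI calves 1, 5 and 7 lay above every CON calf, but the groups overlapped, since CON calf 7 exceeded 4 DCLI calves. Means were 84.2 ± 35.7 TPM in DCLI and 46.4 ± 22.3 TPM in CON (SD), a log2 fold change of 0.83 ± 0.30 (SE) with a 95% interval from 0.19 to 1.46 on the log2(TPM + 1) scale, and an adjusted p of 0.456 by limma. The exact permutation test over the calves gave an unadjusted p of 0.0367, two-sided, and an adjusted p of 0.556. With the summed hepatocyte markers as a covariate, an alternative chosen after the data were seen, the log2 fold change was 0.69. The table holds 1 transcript of GHR, so the use of its alternative first exons was not analysed here.

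JAK2, the kinase bound to the receptor, was the least abundant of the 10 genes. It had 2.61, 3.1 and 3.23 TPM in DCLI calves and 2.15, 2.63 and 4.48 TPM in CON calves (lowest, median and highest). The DCLI calves lay close together, whereas CON calves 1 and 2 stood above all of them and 3 CON calves below all of them, and the log2 fold change was 0.07 ± 0.12 (SE, adjusted p 0.871 by limma, 95% interval -0.18 to 0.33). STAT5B, the transcription factor that carries the growth hormone signal in rodent liver, had 11.97, 15.2 and 18.7 TPM in DCLI and 12.6, 15.3 and 23.1 TPM in CON. Its log2 fold change was -0.01 ± 0.13 (SE, 95% interval -0.29 to 0.27), a sign that turned with the 20 most abundant genes taken out, with sample weights and with the hepatocyte markers as a covariate.

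SOCS2, the suppressor of cytokine signalling that limits growth hormone action, had 21.3, 35.1 and 50.0 TPM in DCLI calves and 16.9, 45.2 and 118.2 TPM in CON calves. Of the DCLI calves, 6 lay below the CON median. CON calf 1 held the highest value and CON calf 4 the lowest, so that CON calves spanned the whole DCLI range. Means were 34.9 ± 9.13 TPM in DCLI and 51.7 ± 32.4 TPM in CON (SD, n = 7 each), with a log2 fold change of -0.38 ± 0.31 (SE, adjusted p 0.722 by limma, 95% interval -1.04 to 0.27). Without CON calf 1 the CON mean was 40.6 TPM and the log2 fold change -0.15. Without CON calf 4 it was -0.61. SOCS2 thus stood lower in DCLI where GHR and IGF1 stood higher. Its level over all 14 calves showed no correlation past the adjusted threshold with any of the other 9 genes. Some pairs differed in sign between the groups: with IGFALS the r was 0.93 in CON and -0.41 in DCLI, and with IGF1 0.75 and -0.26. These differences were not tested.

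The hormone gene followed the receptor. IGF1, which encodes insulin-like growth factor I, had 4.09, 14.6 and 20.8 TPM in DCLI calves and 2.43, 6.32 and 15.1 TPM in CON calves (lowest, median and highest). DCLI calves 1, 5 and 7 lay above every CON calf, as they did for GHR, while DCLI calf 6 lay below all CON calves but calf 6. Means were 13.5 ± 6.17 TPM in DCLI and 7.59 ± 4.15 TPM in CON (SD, n = 7 each), and the log2 fold change was 0.75 ± 0.35 (SE, 95% interval 0.0019 to 1.504, adjusted p 0.562 by limma). The exact permutation test gave an unadjusted p of 0.0845. Leaving out 1 calf moved the log2 fold change between 0.56, without CON calf 6, and 0.98, without DCLI calf 6. With the summed hepatocyte markers as a covariate it was 0.61. When calves were weighted by how well they followed the other calves of their group, 1388 of 11905 genes passed the adjusted threshold. GHR, IGF1 and IGFBP1 were among them, with log2 fold changes of 1.22, 1.27 and -1.04 and adjusted p of 0.0151, 0.0219 and 0.0464 by limma. The weight was 5.93 for DCLI calf 7, the highest of all calves, and 0.47 for DCLI calf 6.

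IGF1 was spread over 9 transcripts in the table, and the estimates of single transcripts were unstable, each of the 9 being at 0 in at least 2 calves. The most abundant, XM_005206499, held 44.2% of the IGF1 TPM in DCLI and 41.1% in CON. NM_001077828 held 23.4% in DCLI and 21.6% in CON, and XM_005206500 held 16.2% in DCLI and 26.4% in CON. These 3 passed the filter at the level of transcripts. XM_005206499 had a log2 fold change of 0.90 ± 0.58, NM_001077828 of 0.76 ± 0.40 and XM_005206500 of 0.20 ± 0.45 (SE, limma over 19045 transcripts), with adjusted p of 0.594, 0.508 and 0.910. In that fit 0 of 19045 transcripts (0%) passed an adjusted p of 0.05 and 2114 (11.1%) had an unadjusted p under 0.05, none of them from the 10 axis genes but that of GHR. SOCS2 was less divided, with XM_005206101 at 72.8% of its TPM in DCLI and 67.7% in CON. STAT5B was shared mainly among 3 transcripts, of which XM_005220673 held 42.6% in DCLI and 34.7% in CON (log2 fold change 0.24 ± 0.16, adjusted p 0.612 by limma).

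IGFALS, the acid-labile subunit that stabilises IGF-I in serum, had the widest spread of the 10 genes on the log2 scale, while in TPM the coefficient of variation in DCLI was 68.9% for IGFALS and 120.6% for IGFBP1. It had 0.25, 13.3 and 27.1 TPM in DCLI calves and 1.41, 6.88 and 19.5 TPM in CON calves (lowest, median and highest). The highest and the lowest of all 14 calves were both in DCLI, calves 5 and 6. The spread of IGFALS within the groups, an SD of 1.32 on the log2(TPM + 1) scale, was above that of 99.5% of the genes tested, where the median SD was 0.25. The log2 fold change was 0.60 ± 0.62 (SE, 95% interval -0.71 to 1.90, adjusted p 0.791 by limma). Without DCLI calf 6 it was 1.12 with an adjusted p of 0.359, the lowest for this gene with 1 calf left out, and without CON calf 4 it was 0.33. With the summed hepatocyte markers as a covariate it was 0.31.

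Among the binding proteins, IGFBP1 showed how far 1 calf can move a mean. IGFBP1, which binds IGF-I in the short term and is repressed by insulin, had 345.4, 490.4 and 3433 TPM in DCLI calves and 466.7, 982.2 and 1391 TPM in CON calves. Of the DCLI calves, 6 lay below the CON median, and calves 1, 5 and 7, those highest in GHR, lay below every CON calf, whereas DCLI calf 6 lay far above all others. The means were therefore alike, 927.1 ± 1119 TPM in DCLI and 930.8 ± 315.1 TPM in CON (SD, n = 7 each), although the log2 fold change was -0.46 ± 0.43 (SE, 95% interval -1.36 to 0.44, adjusted p 0.760 by limma). Without DCLI calf 6 the DCLI mean was 509.5 ± 191.1 TPM (SD, n = 6) and the log2 fold change -0.86, with an adjusted p of 0.248 by limma. With the summed hepatocyte markers as a covariate and all calves, it was -0.24.

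IGFBP2 was the most abundant of the 10 genes, ranking 88 of 17469 by mean level. It encodes a binding protein that is high in the fetus and in underfed animals. It had 846.3, 1744 and 2647 TPM in DCLI calves and 1107, 1839 and 2296 TPM in CON calves, with the lowest and the highest value both in DCLI, calves 1 and 6. The log2 fold change was -0.13 ± 0.23 (SE, 95% interval -0.63 to 0.37, adjusted p 0.892 by limma), and it was 0.02 without DCLI calf 1. IGFBP3, the main carrier of IGF-I in serum, had 76.5, 118.8 and 156.0 TPM in DCLI and 99.7, 113.7 and 144.1 TPM in CON. Its log2 fold change was 0.01 ± 0.15 (SE, 95% interval -0.31 to 0.32), with a sign that turned with quantile normalization, with HP as a covariate and with the hepatocyte markers as a covariate. In rat liver IGFBP-3 is known to be made by cells other than hepatocytes. IGFBP1 and IGFBP3 are neighbours on chromosome 4 of assembly ARS-UCD2.0, with 0 annotated genes between them, and their levels gave an r of -0.53 across calves (adjusted p 0.173, permutation test), which was -0.11 without DCLI calf 6. Within the groups it was -0.94 in DCLI and 0.53 in CON, a difference that was not tested.

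IGFBP4, an inhibitor of IGF action that is cleaved by pappalysins, was the steadiest gene of the axis. It had 977.7, 1082 and 1216 TPM in DCLI calves and 870.2, 1021 and 1204 TPM in CON calves. Its spread within the groups, an SD of 0.14 on the log2(TPM + 1) scale, was below that of most genes tested, at percentile 3.34. The log2 fold change was 0.07 ± 0.10 (SE, 95% interval -0.14 to 0.28, adjusted p 0.839 by limma). The TPM of the 4 binding protein genes summed to 3813 ± 1665 in DCLI and 3855 ± 644.6 in CON (SD, n = 7 each).

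In order of mean level per transcript length over the 14 calves, the genes ran IGFBP2, IGFBP4, IGFBP1, IGFBP3, GHR, SOCS2, STAT5B, IGFALS, IGF1 and JAK2, with means of 1729, 1055, 928.95, 121.2, 65.3, 43.3, 15.7, 11.4, 10.6 and 2.96 TPM. IGFBP1 exceeded IGFBP3, SOCS2 exceeded STAT5B and IGF1 exceeded JAK2 in all 14 calves. Several neighbours in this order were not separated beyond their spread. IGFALS exceeded IGF1 in 7 of 14 calves, IGFBP4 exceeded IGFBP1 in 10, GHR exceeded SOCS2 in 10 and STAT5B exceeded IGFALS in 11.

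**Figure D2:**
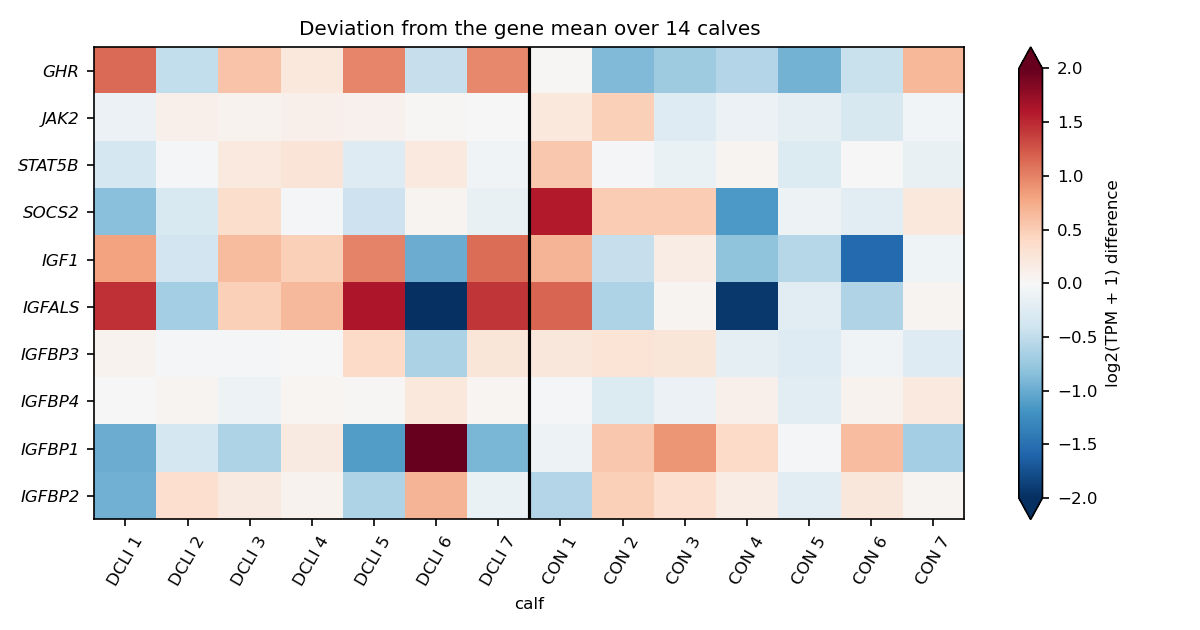
Deviation of log2(TPM + 1) from the mean of each gene over 14 calves (colour scale, values past 2 in either direction shown in the end colours) for the 10 axis genes (rows) in DCLI calves (left of the line) and CON calves (right). GHR, IGF1 and IGFALS are high together in DCLI calves 1, 5 and 7, where IGFBP1 and, in calves 1 and 5, IGFBP2 are low; DCLI calf 6 shows the opposite.

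Some genes of the axis varied together among calves. The share of pairs that do so among all genes was not computed, so the counts below have no background beside them. The hepatocyte marker sum itself had an r of 0.65 with IGF1. Of the 45 pairs of the 10 genes, 9 had a Pearson correlation of log2(TPM + 1) past an adjusted p of 0.05 (permutation test with 100000 resamples, two-sided, n = 14), 5 positive and 4 negative, and by Spearman's rho 9 passed. The set by rho differed in 1 pair: IGFALS with IGFBP3 did not pass, and IGF1 with IGFBP3 did, with a rho of 0.69 (p 0.00819, adjusted p 0.0409) and an r of 0.63 (p 0.0158, adjusted p 0.0594, permutation test). The r of IGF1 and IGFBP3 was 0.68 without DCLI calf 7 and CON calf 6, and 0.35 with the summed hepatocyte markers removed. By r, GHR, IGF1 and IGFALS correlated positively with one another, IGFBP1 correlated negatively with all 3, IGFALS also correlated positively with IGFBP3 and negatively with IGFBP2, and IGFBP1 and IGFBP2 correlated positively. With the values centred on the group means, so that the difference between the groups takes no part, 12 pairs passed. That permutation treated the 14 centred values as freely exchangeable although the group means had been removed, so its p are somewhat too small. The rise from 9 to 12 pairs therefore does not show closer relations within the groups.

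The closest pair was IGF1 and IGFALS, with an r of 0.85 (p 0.00012, adjusted p 0.0054, permutation test) and a rho of 0.91 (p 1e-05, the smallest the resamples can give, adjusted p 0.00045). It was 0.86 after centring, 0.97 within DCLI and 0.72 within CON (exact permutation p of 0.00179 and 0.0694, n = 7 each). Without the calves farthest from the IGF1 median, DCLI calf 7 and CON calf 6, r was 0.93. With the summed hepatocyte markers removed from both genes by regression it was 0.72, and with HP removed 0.76.

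GHR and IGF1, the receptor and the hormone gene it controls, had an r of 0.76 (p 0.00234, adjusted p 0.0181, permutation test) and a rho of 0.71 (p 0.00584, adjusted p 0.0328). The r was 0.68 after centring, 0.93 within DCLI and 0.36 within CON (exact permutation p of 0.00317 and 0.423, n = 7 each). Whether the groups differ in this relation was not tested. Without DCLI calves 1 and 5, farthest from the GHR median, it was 0.69 (permutation p 0.0143). With the hepatocyte markers removed it was 0.58. GHR and IGFALS gave an r of 0.71 (p 0.00425, adjusted p 0.0243, permutation test) and a rho of 0.77 (p 0.00189, adjusted p 0.0163). The r was 0.59 without DCLI calves 1 and 5 and was 0.38 with the hepatocyte markers removed.

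IGFBP1 ran opposite to these genes. IGFALS and IGFBP1 had an r of -0.81 (p 0.00056, adjusted p 0.0126, permutation test) and a rho of -0.76 (p 0.00254, adjusted p 0.0163). The r was -0.92 within DCLI and -0.36 within CON (exact permutation p of 0.0165 and 0.426, n = 7 each), and -0.67 without DCLI calf 6 and CON calf 4. GHR and IGFBP1 had an r of -0.72 (p 0.00242, adjusted p 0.0181, permutation test) and a rho of -0.76 (p 0.00244, adjusted p 0.0163). The values were close in the groups, -0.76 within DCLI and -0.74 within CON (exact permutation p of 0.022 and 0.05, n = 7 each), and the r was -0.62 without DCLI calves 1 and 5 (permutation p 0.0281), -0.60 with median-ratio scaling and -0.85 without DCLI calf 6. IGF1 and IGFBP1 had an r of -0.69 (p 0.00515, adjusted p 0.0257, permutation test) and a rho of -0.77 (p 0.00189, adjusted p 0.0163), and the r was -0.68 without DCLI calf 7 and CON calf 6. With the hepatocyte markers removed these 3 correlations were -0.46, -0.37 and -0.35.

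IGFALS and IGFBP2 had an r of -0.77 (p 0.00153, adjusted p 0.0181, permutation test) and a rho of -0.80 (p 0.0011, adjusted p 0.0163), and the r was -0.68 with the hepatocyte markers removed. IGFALS and IGFBP3 had an r of 0.75 (p 0.00227, adjusted p 0.0181, permutation test), but a rho of 0.60 (p 0.0247) that missed the adjusted threshold at 0.0962. Without DCLI calf 6 and CON calf 4 the r was 0.48 (permutation p 0.112), and with any 1 calf left out it was 0.57 to 0.83. How far this relation rests on those calves was not tested. IGFBP1 and IGFBP2 had an r of 0.71 (p 0.00432, adjusted p 0.0243, permutation test) and a rho of 0.78 (p 0.00159, adjusted p 0.0163), and the r was 0.57 without DCLI calves 5 and 6. STAT5B, SOCS2, JAK2 and IGFBP4 took part in none of the 9 pairs. STAT5B and SOCS2 had an r of 0.59 (adjusted p 0.102, permutation test), which was 0.04 without the calves farthest from the STAT5B median. The r of this pair was 0.88 within DCLI and 0.54 within CON (exact permutation p of 0.00516 and 0.226, unadjusted).

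**Figure D3:**
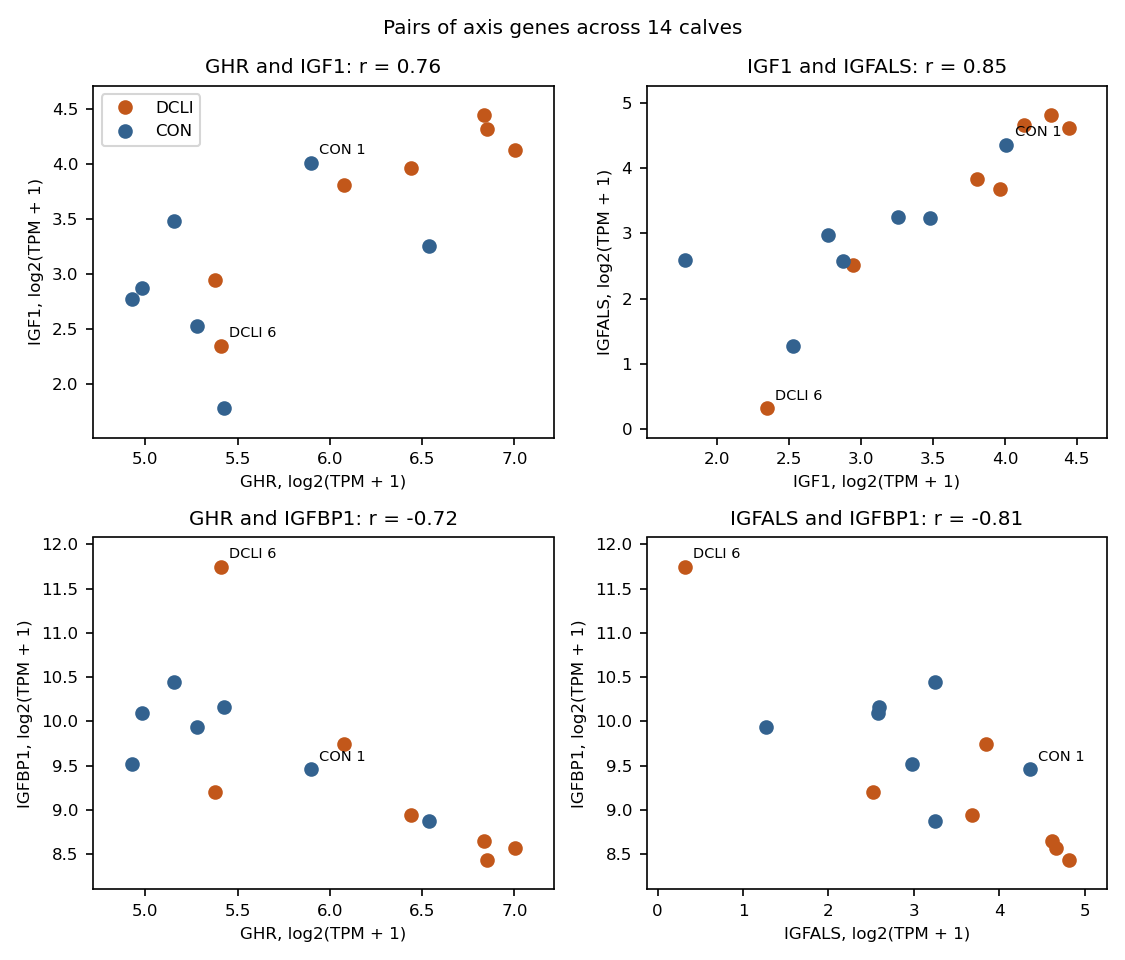
Levels of pairs of axis genes as log2(TPM + 1) on both axes, 1 point per calf (DCLI orange, CON blue), with Pearson's r over 14 calves and DCLI calf 6 and CON calf 1 labelled. IGF1 rises with GHR (r = 0.76) and IGFALS with IGF1 (r = 0.85), while IGFBP1 falls with GHR (r = -0.72) and with IGFALS (r = -0.81).

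The same calves also differed in HP, which ran from 138.2 to 29341 TPM in DCLI and from 46.6 to 21480 TPM in CON. The 15 pairs examined were each of the 10 genes with HP, and IGFBP1 with 5 genes that insulin is known to repress. Of the 15 pairs, 0 passed an adjusted p of 0.05 by Pearson's r and 1 did by Spearman's rho. HP had an r of -0.60 with IGF1 (p 0.0237, rho -0.66, adjusted p 0.104 for r, permutation test), -0.60 with IGFALS (p 0.0219, adjusted p 0.104, permutation test) and 0.58 with IGFBP1 (p 0.0266, adjusted p 0.104, permutation test). The value with GHR was -0.48 (p 0.0851, permutation test). With the hepatocyte markers removed, the r of HP was -0.11 with IGFALS, -0.27 with IGF1, -0.07 with IGFBP1 and 0.02 with GHR. Without that removal, the r of HP within CON was -0.80 with IGF1, -0.83 with IGFALS, -0.73 with GHR and 0.53 with IGFBP1. The exact permutation p were 0.0272, 0.0155, 0.0579 and 0.231, unadjusted. Within DCLI the r were -0.52, -0.52, -0.39 and 0.70 in the same order (exact permutation p of 0.247, 0.229, 0.365 and 0.0472). Whether the groups differ in these relations was not tested. DCLI calf 1 had the highest GHR, 127.3 TPM, at 10022 TPM of HP, which is a single calf. With HP as a covariate the log2 fold changes between DCLI and CON were 0.79 for GHR, 0.71 for IGF1 and -0.41 for IGFBP1.

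Genes whose level across calves was most like that of an axis gene were looked up among 7981 others with a symbol and a mean of at least 5 TPM, by Pearson's r of log2(TPM + 1) centred on group means over the 14 calves. This is a description, with no test, and the highest of many values is high by selection. For IGF1 the closest were LYSMD3 (r 0.89) and ASB11 (0.88). GHR was most like ALDH9A1 (0.94), APOF (0.93) and NID1 (0.93), and IGFBP1 most like BHLHA15 (0.91), PSPH (0.90) and ECD (0.90). The genes most like IGFBP2 were S100A13 (0.88), ARG1 (0.83) and ARMC6 (0.81), and those most like IGFBP3 were LHFPL6 (0.89), TARS (0.88) and LGMN (0.88).

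Around the 10 genes, 44 further genes of growth hormone, IGF and insulin signalling were listed, of which 39 passed the filter on low values. Of these, 0 passed the adjusted threshold. At an unadjusted p under 0.05 there were 4 higher in DCLI (INSR, FURIN and LEPR among them, where 5.7% of all genes were) and 1 lower (IGF2, where 3.19% of all genes were). The median log2 fold change of the 39 was -0.01, with 19 above 0 and 20 below it.

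IGF2, the second IGF hormone, which cattle continue to express in liver after birth, had 228.8, 429.5 and 518.2 TPM in DCLI calves and 415.7, 528.0 and 687.3 TPM in CON calves (lowest, median and highest). All 7 DCLI calves lay below the CON median, and DCLI calves 2, 3 and 6 below every CON calf. Means were 404.9 ± 106.3 TPM in DCLI and 528.1 ± 88.6 TPM in CON (SD, n = 7 each), a log2 fold change of -0.41 ± 0.17 (SE, adjusted p 0.509 by limma). IGF2 mRNA was thus far more abundant than IGF1 mRNA in both groups, and its difference had the other sign.

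INSR, the insulin receptor, had 13.7, 15.4 and 16.4 TPM in DCLI calves and 10.5, 12.6 and 15.3 TPM in CON calves. All 7 DCLI calves lay above the CON median and 4 above every CON calf, with a log2 fold change of 0.26 ± 0.10 (SE, adjusted p 0.456 by limma). FURIN, a protease that processes proproteins including the IGF-I receptor, stood 0.43 ± 0.16 higher and LEPR, the leptin receptor, 0.37 ± 0.17 (log2 fold changes, SE, n = 7 each). Their adjusted p by limma were 0.471 and 0.553. The LEPR mean in DCLI included 51.9 TPM in DCLI calf 6, where the next DCLI calf had 30.1 TPM. Without DCLI calf 6 its log2 fold change was 0.24, and over all calves its exact permutation p was 0.0594 before adjustment.

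IGF1R, the receptor through which IGF-I acts, did not reach the filter, with 0.91 ± 0.25 TPM in DCLI and 0.78 ± 0.16 TPM in CON (SD, n = 7 each). IGF2R, which clears IGF-II, had 18.0 ± 3.83 TPM in DCLI and 17.0 ± 4.19 TPM in CON. Of the other binding protein genes, IGFBP7 had 116.4 ± 16.7 TPM in DCLI and 142.9 ± 36.9 TPM in CON, IGFBP5 7.69 ± 1.66 TPM in DCLI and 9.39 ± 4.34 TPM in CON, and IGFBP6 8.14 ± 2.16 TPM in DCLI and 8.49 ± 2.05 TPM in CON (SD, n = 7 each). Their log2 fold changes were -0.26, -0.16 and -0.06, and that of IGF2R was 0.10, with adjusted p by limma between 0.652 and 0.936. PAPPA, PAPPA2, STC1 and STC2, which encode the IGFBP-cleaving pappalysins and their inhibitors the stanniocalcins, reached at most 1.24 TPM in any calf.

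**Figure D4:**
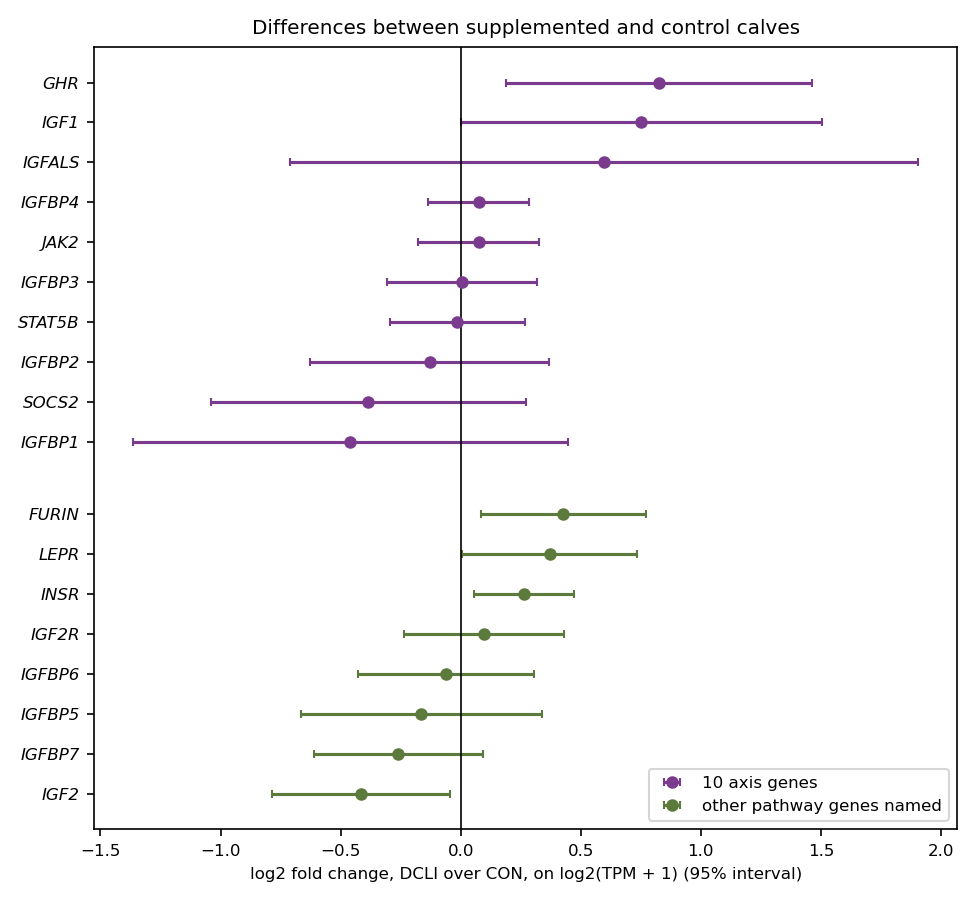
Log2 fold change of DCLI over CON on the log2(TPM + 1) scale (horizontal axis) with its 95% interval from limma (bars) for the 10 axis genes (purple) and 8 other pathway genes (green), n = 7 calves in each group. The intervals of GHR (0.19 to 1.46), IGF1, INSR, FURIN, LEPR and IGF2 exclude 0 before adjustment for the 11905 genes tested, and none passed after it.

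Among the 10 genes of the axis, 0 had DCLI and CON calves that did not overlap, where 8 of 11905 genes (0.0672%) did, 7 of them higher in DCLI (0.0588%) and 1 lower (0.0084%).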

How the data were processed

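The authors deposited 1 table of TPM for 49721 RefSeq transcripts, written to 2 decimals. Reads were filtered with SOAPnuke 1.5.6, per the labels' protocols, and RSEM 1.3.1 and DESeq2 1.4.5 are named in the submitters' processing notes. For the aligner and the genome build: not given in the sources used here.

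Values were added up per gene ID, and a gene stayed in the test when 7 or more of the 14 libraries reached 1 TPM (11905 genes). Since TPM has a fixed sum, very abundant transcripts press down the rest. DCLI and CON were compared on log2(TPM + 1) with limma 3.58.1 in R 4.3.3 (mean-variance trend, two-sided, Benjamini-Hochberg adjustment over all genes kept, threshold 0.05), without covariates, since the labels name no batch. Fold changes on this scale understate those of low genes. The fit was run on simulated data with independent, normally distributed genes of equal spread in both groups. Those data held neither outlying calves nor correlated genes, so they do not show how the fit handles these. Exact permutation tests used all 3432 assignments of the calves, and the smallest p they allow is 0.000583. Correlations used 100000 resamples, or all orders within 7 calves. Alternatives changed the pseudocount, filter, scaling, weights, covariates, block and calves.

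The members and gene lists were chosen with earlier results of these data known. Named are the 10 members, of the pathway list the 5 of lowest p and the IGF ligand, receptor and binding protein genes, and 3 genes most like each of 5 members. Of these, 2 genes are not reported here. The IGF1, STAT5B, SOCS2 and JAK2 values sum over several estimated transcripts. Sequences were not used here.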

Additional observations from a re-analysis of the deposited data

Results flagged for a closer look

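Within the 2 groups of 7 calves, each of 20 genes was looked over for a calf far from the others, by its gap to the nearest calf as a share of the group's range (above 0.568). For normally distributed values chance flags about 1 in 20 such groups, and 40 were examined. The values were taken in TPM without logs, and some of the 20 genes varied together, so the rate here can differ.

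CON calf 1 stood far above the other CON calves in 3 genes of the axis. Its IGFALS was 19.52 TPM where the next CON calf had 8.52 TPM, its STAT5B 23.1 TPM where the next had 16.2 TPM, and its SOCS2 118.17 TPM where the next had 55.99 TPM. It also had the lowest HP of all calves. DCLI calf 6 stood apart in IGFBP1, at 3432.66 TPM where the next DCLI calf had 854.89 TPM, in LEPR, at 51.89 TPM where the next had 30.09 TPM, and in FURIN, at 65.0 TPM where the next lowest had 78.29 TPM. It had the lowest hepatocyte marker sum and the highest HP. The part of either in these values was not tested.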

How the results depend on the processing

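Across the alternatives tried, 0 genes passed the adjusted threshold, with the following exceptions. With the replicate number of the titles as a replicate block 1 gene passed, none of the axis. With sample weights 1388 of 11905 genes did. Without CON calf 7 there were 12 genes, the range with 1 calf left out being 0 to 12. The labels do not say whether the replicate numbers pair the calves, and correlations between calves cannot decide it. The deviations of same-numbered calves correlated between -0.18 and 0.45. For 2 of 7 numbers both calves correlated best with each other across the groups. With sample weights, which gave DCLI calf 7 a weight of 5.93 and CON calf 2 one of 0.34, GHR, IGF1 and IGFBP1 passed, with log2 fold changes of 1.22, 1.27 and -1.04 and adjusted p of 0.0151, 0.0219 and 0.0464 by limma. INSR and FURIN also passed then. Over the other alternatives, calves left out included, the adjusted p of GHR, IGF1 and IGFBP1 lay above 0.05. Signs near 0 turned. IGFBP3 was -0.035 with quantile normalization, -0.0083 with HP as a covariate and -0.049 with the hepatocyte marker sum as a covariate, and ran from -0.057 to 0.11 with 1 calf left out. STAT5B was 0.0039 without the 20 most abundant genes, 0.015 with sample weights and 0.0020 with the hepatocyte marker sum, and ran from -0.061 to 0.076. IGFBP2 ran from -0.25 to 0.022 and IGFBP6 from -0.16 to 0.035, and IGFBP6 was 0.18 with sample weights and 0.0099 without CON calf 2 and DCLI calf 6. GHR kept its sign, from 0.71 to 1.01 with 1 calf left out, as did IGF1, from 0.56 to 0.98. The cause of these turns was not tested.

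Among the 9 pairs that passed by r, and HP with IGFALS, correlations moved by over 0.15 as follows. Within CON alone they were -0.36 for IGFALS and IGFBP1, -0.59 for IGFALS and IGFBP2, 0.41 for IGFALS and IGFBP3, 0.36 for GHR and IGF1, 0.41 for GHR and IGFALS, -0.33 for IGF1 and IGFBP1 and -0.83 for HP and IGFALS. Within DCLI alone they were 0.94 for IGFALS and IGFBP3, 0.93 for GHR and IGF1, 0.88 for GHR and IGFALS and -0.86 for IGF1 and IGFBP1. IGFALS and IGFBP3 gave 0.48 without the 2 calves farthest on IGFALS and 0.57 without DCLI calf 6, the range with 1 calf left out being 0.57 to 0.83. With the hepatocyte marker sum removed, values were -0.46 for IGFALS and IGFBP1, 0.49 for IGFALS and IGFBP3, 0.58 for GHR and IGF1, 0.38 for GHR and IGFALS, -0.37 for GHR and IGFBP1, -0.35 for IGF1 and IGFBP1 and -0.11 for HP and IGFALS. With HP removed, IGF1 and IGFBP1 gave -0.52. The hepatocyte marker alternatives, the removal of HP from correlations and correlations without DCLI calf 6 were chosen after seeing the data. Depth is unknown, so no detection limit can be given, and 7 calves in each group limit the precision.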

Other observations

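IGFBP1, which insulin represses, was set beside 5 genes chosen because insulin is known to repress them too. The part of insulin in the relations below, including those of opposite sign, was not tested. PCK1, the cytosolic phosphoenolpyruvate carboxykinase of gluconeogenesis, ran opposite to it, with an r of -0.59 (p 0.0277, adjusted p 0.104, permutation test) and a rho of -0.78 (p 0.00141, adjusted p 0.0211, permutation test, n = 14). Of the 15 pairs of this family it was the one past the threshold by rho. The r was -0.66 without DCLI calf 6, and -0.78 within DCLI and -0.17 within CON. With the summed hepatocyte markers removed from both genes the r was -0.03, with HP removed -0.46, and with median-ratio scaling -0.32. PCK1 had 1520, 1911 and 2314 TPM in DCLI calves and 1199, 1559 and 1865 TPM in CON calves (lowest, median and highest). FBXO32, which encodes the ubiquitin ligase atrogin-1, also ran opposite to IGFBP1, with an r of -0.53 (p 0.0529, adjusted p 0.132, permutation test). It was -0.76 without DCLI calf 6, -0.77 within DCLI and -0.30 within CON, -0.30 with the hepatocyte markers removed and -0.35 with HP removed. IRS2, an insulin receptor substrate, G6PC, glucose-6-phosphatase, and TXNIP had r values of 0.27, -0.15 and 0.37 with IGFBP1 and unadjusted p from 0.196 to 0.62 by permutation.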
